A study of Xenopus tropicalis with 9 samples.

Results

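The gene scppa2 belongs to the secretory calcium-binding phosphoprotein (SCPP) family and was followed across 9 RNA sequencing libraries from tails of Xenopus tropicalis, a frog whose tadpole tail is resorbed at metamorphosis. It is 1 row, ENSXETG00000000337, of the 19921 rows of the count table, found by the gene name in the authors' tables of selected genes. There are 3 libraries in each of 3 groups: whole tail of stage 60, whole tail of stage 63, and stage 63 tail from which the notochord had been removed. The submitters place stage 60 before metamorphosis and stage 63 within it. Strain, genotype and treatment are not stated in the labels. Separate animals or pools per library are not stated either, so p-values cover library-to-library spread that could be technical.

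The gene was picked because it was higher at stage 63 and higher with the notochord present. It was thus chosen by its measured FPKM ratios in these same libraries, so its own levels and differences are given as a description and carry no test.

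SCPP proteins are secreted, and many of them bind calcium in the matrix of enamel, dentin or bone. The family is thought to descend from a SPARC-like ancestor by gene duplication, and its members lie in clusters along the chromosome. In mammals the acidic members expressed in bone and dentin, such as SPP1 and IBSP, lie next to PKD2, while the enamel genes ENAM, AMBN and ODAM lie in another cluster of the family. The notochord is the rod of vacuolated cells in a fibrous sheath along the axis of the tail, and it is resorbed with the tail under thyroid hormone.

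In the authors' count table scppa2 lies on the plus strand of scaffold GL173028.1, from 346863 to 351187. The build behind these positions is not stated. The model has 3 exons, at 346863 to 346916, 348961 to 349158 and 350981 to 351187, of 54, 198 and 207 bases, which sum to 459. Whether untranslated ends are included in the model is not stated. There were 0 other rows of the table that overlapped it.

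Libraries held 26928846 to 34836531 counts assigned to genes. Levels below are CPM after TMM scaling, which sets the composition of the libraries equal for the bulk of genes, or fragments per kb of gene length scaled to the library total (FPKM) where genes are compared with each other. Differences are log2 with a standard error (SE) from edgeR. TMM matters between the stages: scaling by library total alone shifted the median log2 difference over all genes by 0.82 in stage 63 over stage 60 whole tail, and by -0.03 between whole and notochord-removed tail.

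At stage 60 whole tail, scppa2 had 181, 181 and 160 counts, or 9.64, 9.32 and 8.84 CPM. At stage 63 whole tail it had 13155, 10102 and 11318 counts, or 335.7, 289.9 and 265.8 CPM. In notochord-removed tail it had 3717, 3903 and 4353 counts, or 105.2, 109.6 and 105.9 CPM. Stage 60 was lowest, notochord-removed tail in between and stage 63 whole tail highest, and no library of any group overlapped with another group. Of all 14125 genes tested, 9.47% had this order without overlap. Between the stages in whole tail, 44% of genes lay higher and 41.5% lower without overlap, and between whole and notochord-removed tail 18.3% and 21%. Between notochord-removed and stage 60 tail these shares were 43.6% and 39.8%.

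The means were 9.27 ± 0.404 CPM at stage 60, 107 ± 2.38 CPM in notochord-removed tail and 297 ± 35.5 CPM in stage 63 whole tail (SD, n = 3 libraries each). Neighbouring groups in this order stood apart by far more than these SDs, a description only, as the gene was chosen by these differences. The coefficient of variation was 11.95% in stage 63 whole tail, where the median gene had 6.64%, and 2.23% in notochord-removed tail, where the median gene had 8.12%. In stage 63 whole tail replicate 1 was the highest and replicate 3 the lowest.

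**Figure D1:**
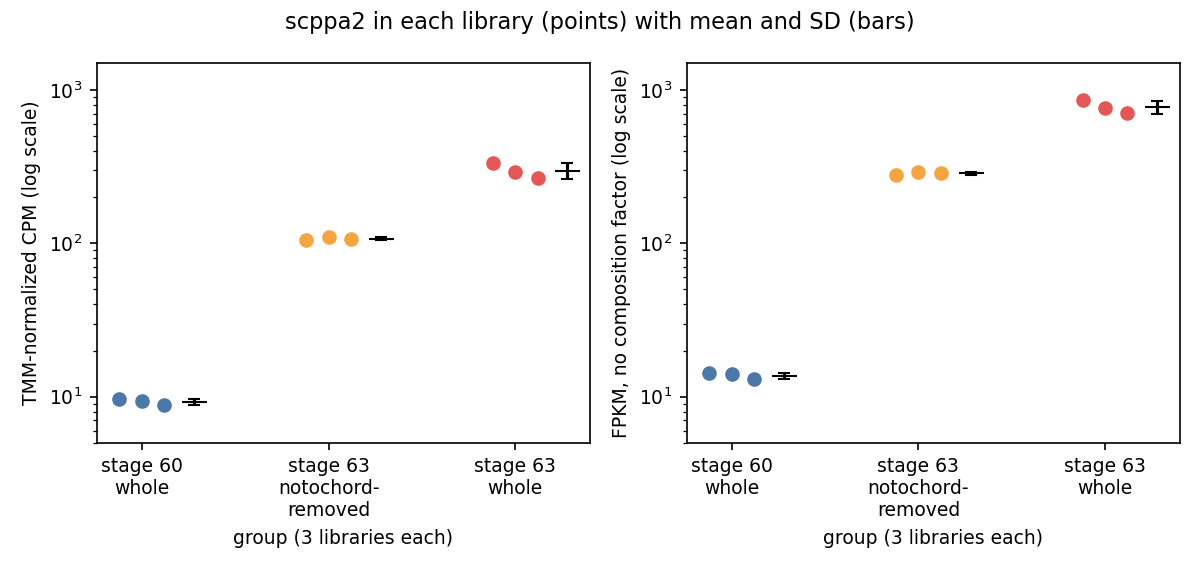
Level of scppa2 in each library, as TMM-normalized CPM (left) and as FPKM without a composition factor (right), both on log axes, for 3 groups of 3 libraries; points are libraries, bars the mean and SD. The 3 groups do not overlap on either scale, with means of 9.27, 107 and 297 CPM.

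The log2 difference between stage 63 and stage 60 whole tail was 5.0 (SE 0.0949), a 32.0-fold higher level. It was the 74th highest of the 14125 genes tested, of which 43% were higher and 40.8% lower at stage 63 at an edgeR adjusted p under 0.05, 83.8% together. On the FPKM scale, with no composition factor, the ratio was 56.6 in the authors' deposited table and the log2 difference 5.82. By that ratio scppa2 had rank 915 of 8054 in their stage list, which also holds genes below the filter on low counts. Both scales place the gene far above the median gene, at 0.05 after TMM scaling. The size of the stage difference depends on the scaling by more than 1.5 times.

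The log2 difference between stage 63 whole and notochord-removed tail was 1.47 (SE 0.0747), or 2.78-fold, the 80th highest of the 14125 genes tested. Here 11.1% of genes were called higher with the notochord present and 14.5% lower, 25.6% together. The authors' deposited table gives a ratio of 2.71, close to the TMM value because composition differed little between these groups. By that ratio scppa2 had rank 722 of 936 in their notochord list, which also holds genes below the filter on low counts.

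In notochord-removed tail, scppa2 was still above its stage 60 level, by a log2 difference of 3.53 (SE 0.0927), or 11.5-fold. With library totals alone this was 20.8-fold. In this comparison 43.3% of genes were called higher and 39.7% lower, 82.9% together. The value shares its libraries with the other comparisons and follows from them. Notochord-removed tail held 36.0% of the CPM of whole tail, and stage 60 tail held 3.12%. The excess over stage 60 in notochord-removed tail was 33.9% of the excess in whole tail. In these bulk samples, fewer cells of a type and less RNA per cell cannot be told apart. How complete the removal was, and the part of any notochord left behind in these values, was not tested.

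Per length, scppa2 was among the more abundant transcripts at stage 63. It stood at 13.7 ± 0.667 FPKM at stage 60, rank 3189 of the genes tested. In stage 63 whole tail it reached 776 ± 78.1 FPKM, rank 166, and in notochord-removed tail 286 ± 6.31 FPKM, rank 319 (SD, n = 3 each). Of the genes tested, 981 or 6.95% were called higher in both comparisons, and 66 of these were at least 2-fold higher in both. Among the 66, scppa2 had the second highest FPKM in stage 63 whole tail. The gelatinase-type gene mmp9-th was above it at 2193 FPKM, and the collagenase gene mmp13 and the secreted glycoprotein gene olfm4 followed at 507 and 208 FPKM. These 3 were singled out after their values were seen, from their place in this order. The order rests in part on gene length, which is 459 bases for the scppa2 model. By CPM in stage 63 whole tail mmp13 was above scppa2, at 921 against 297.

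There were 9 other genes with a log2 difference at least as high as that of scppa2 in both comparisons. Of these, mmp13 was at 921 CPM and olfm4 at 286 CPM in stage 63 whole tail. The other 7 lay between 0.926 and 6.41 CPM there, and 2 of these had 0 counts at stage 60.

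**Figure D2:**
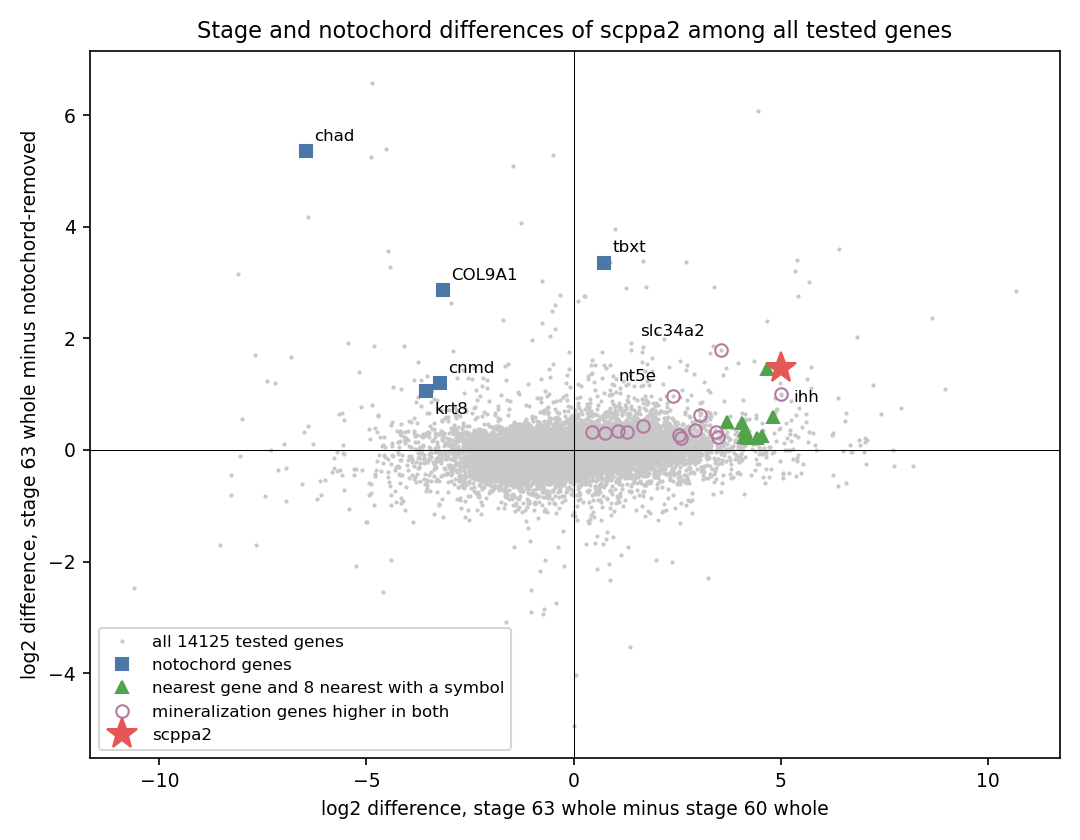
Log2 difference of stage 63 whole minus stage 60 whole tail (x axis) and of stage 63 whole minus notochord-removed tail (y axis) for all 14125 genes tested, with scppa2 (star), 5 notochord genes (squares), the gene nearest to scppa2 in pattern and the 8 nearest with a symbol (triangles) and 14 mineralization genes called higher in both comparisons (rings). The star lies at 5.0 and 1.47, to the right of the notochord genes.

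Known notochord genes are set beside scppa2 by the share of their level left in notochord-removed tail. The notochord transcription factor gene tbxt had 4.19, 4.22 and 3.83 CPM in stage 63 whole tail and 0.594, 0.309 and 0.292 CPM in notochord-removed tail, which left 9.77%. The cartilage collagen gene COL9A1 kept 13.7% and the cartilage matrix gene chad 1.95%, the latter on 2 counts in notochord-removed tail. The cartilage glycoprotein gene cnmd kept 43.4% and the keratin gene krt8 48.3%. The 36.0% of scppa2 lies between COL9A1 and cnmd. All 5 were lower in notochord-removed tail by edgeR (adjusted p of 3.35e-10 for tbxt, 2.45e-10 for COL9A1, 1.43e-07 for chad, 6.39e-08 for cnmd and 3.3e-08 for krt8). All 5, like scppa2, stand in the authors' own list of genes higher with the notochord, which takes FPKM ratios above 2. These tests are not independent of that selection. It also kept the shares left low, so they do not measure how complete the removal was. The place of scppa2 among these genes is a description only.

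Over the stages 4 of these 5 genes fell and tbxt rose. The log2 difference of stage 63 over stage 60 whole tail was -6.46 for chad, -3.56 for krt8, -3.23 for cnmd and -3.16 for COL9A1. For tbxt it was 0.73 (SE 0.16; edgeR adjusted p = 3.24e-04). As tbxt also stands in the authors' stage list, this p-value is not independent of that selection.

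Marker lists of the cell types a tail can hold gave these summed levels. The 5 notochord markers with a symbol, of 7 listed, summed to 1428 to 1479 CPM at stage 60, 120 to 126 CPM in stage 63 whole tail and 49.7 to 64.7 CPM in notochord-removed tail. Most of this sum was the keratin gene krt8, at 1276, 108 and 52.1 CPM. The sum thus mainly follows krt8, while tbxt went from 2.46 CPM at stage 60 to 4.08 CPM in stage 63 whole tail. The 4 epidermis markers summed to 35.4 to 46.7, 2203 to 2379 and 2014 to 2066 CPM, in the same order of groups, without overlap. The gap between whole and notochord-removed tail rested on the keratin gene krt5.2, and the other 3 summed to 1620 to 1715 and 1588 to 1632 CPM there, which overlap, against 29.7 to 39.2 CPM at stage 60. The 4 osteoclast and macrophage markers of 5 listed summed to 327 to 353, 828 to 879.5 and 796 to 860.3 CPM, with dcstamp at 0 counts at stage 60. Nearly all of this sum was csf1r and acp5, at 571 and 283 CPM in stage 63 whole tail. There ocstamp was at 1.03 CPM and dcstamp at 0.231 CPM. Symbols came with the authors' selected genes. All named epidermis, osteoclast and macrophage markers stand in the authors' stage list, and all 5 notochord markers in their notochord list. The stage direction of the former sums, and the notochord direction of the latter, were thus largely fixed by that selection. The part of these cell types in the scppa2 differences was not tested.

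Levels of osteoblast markers are given next, and the presence of bone cells was not tested. The listed marker bglap had no named row. The osteoblast transcription factor gene sp7 had 0 counts at stage 60, 1 count in stage 63 whole tail and 0 in notochord-removed tail, each over 3 libraries. The bone sialoprotein gene ibsp had 0, 3 and 1. The other osteoblast markers with a symbol, runx2 and the phosphatase gene alpl, are also expressed elsewhere, and the 4 summed to 20.7 to 24.6 CPM at stage 60, 74.6 to 82.7 CPM in stage 63 whole tail and 62.7 to 74.9 CPM in notochord-removed tail. Thus 2 of the 4 osteoblast markers, sp7 and ibsp, were at or near 0 in every group. The other 2 were higher at stage 63. Both stand in the authors' stage list, so the direction of this rise was fixed by that selection. In the same order of groups, runx2 was at 4.85, 28.4 and 23.7 CPM and alpl at 17.9, 49.3 and 46.9 CPM. Of 3 chondrocyte markers with a symbol, the hypertrophic cartilage collagen gene COL10A1 had 3, 863 and 848 counts in the same order of groups. The 3 summed to 40.5 to 46.7, 17.3 to 19.4 and 13.4 to 15.9 CPM. The fall of this sum came from COL9A1, which is also a notochord marker. The other 2, COL10A1 and the cartilage transcription factor gene sox9, summed to 3.73 to 4.89, 13.2 to 14.4 and 12.8 to 15.2 CPM. They too stand in the authors' stage list, which fixed the direction of their rise.

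The scaffold around scppa2 holds other SCPP genes, and their levels are printed here because they share its neighbourhood and family. Along the scaffold the rows ambn, enam, g3bp2, odam, ibsp, scppa2, pkd2 and abcg2 follow each other in this order, with unnamed rows between some of them. RefSeq gene order in assembly UCB_Xtro_10.0, used for neighbours only, likewise places pkd2 at one end and ibsp, odam, enam and ambn beyond. It also has the SCPP genes dspp and dmp1 between ibsp and odam. That table has no gene under the symbol scppa2 and lists 2 protein-coding genes without a name between pkd2 and ibsp. The gap from scppa2 to the nearest row on the side of ibsp was 47661 bases, and on the side of pkd2 5480 bases.

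The 4 other SCPP genes of this stretch with a symbol were close to silent. The enamel matrix gene enam had 0 counts at stage 60, 6 in stage 63 whole tail and 5 in notochord-removed tail, over 3 libraries each. The enamel gene ambn had 4, 26 and 29 counts, the highest of the 4. The ameloblast-associated gene odam had 4, 3 and 0, and ibsp had 0, 3 and 1, against 522, 34575 and 11973 for scppa2. Per length in stage 63 whole tail, with libraries pooled, this was 775 FPKM for scppa2, 0.205 for ambn, 0.0347 for odam, 0.0248 for ibsp and 0.0181 for enam. A count of 0 allows up to 3 counts over the 3 libraries of a group, which is 0.0369 FPKM for odam in notochord-removed tail, and covers counting error only. None of these 4 passed the filter on low counts, and no difference between groups is read from them. Between odam and ibsp lie 2 rows without a name, with 1 and 0 counts in all 9 libraries. Whether these are dspp and dmp1, which RefSeq places there, was not tested.

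The 3 rows next to scppa2 on the other flank passed the filter, and their log2 differences were smaller than those of scppa2. The calcium-permeable channel gene pkd2 had 6.18, 6.23 and 5.41 CPM at stage 60, 48.1, 51.3 and 51.0 CPM in stage 63 whole tail and 43.6, 44.4 and 44.9 CPM in notochord-removed tail. It rose between the stages by 3.08 (SE 0.0793; edgeR adjusted p = 1.65e-17). Its difference between whole and notochord-removed tail was 0.18 (SE 0.0605; edgeR adjusted p = 0.0363), and this call was lost in 7 of 16 alternatives (adjusted p from 0.0183 to 0.137), including leaving out replicate 2 or 3 of stage 63 whole tail, or replicate 1 or 2 of notochord-removed tail.

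The efflux transporter gene abcg2 rose by 0.56 (SE 0.0786; edgeR adjusted p = 1.76e-06). Its notochord difference of 0.22 (SE 0.0734; edgeR adjusted p = 0.0365) was likewise lost in 7 of 16 alternatives (0.0108 to 0.188), including leaving out stage 60 replicate 1, replicate 1 or 2 of stage 63 whole tail, or replicate 2 or 3 of notochord-removed tail. The next row, ENSXETG00000000341, without a name, fell by 0.77 on the log2 scale (SE 0.14; edgeR adjusted p = 4.26e-05), but with library totals alone its value was 0.05 and did not pass. Of these 3 rows, pkd2 and abcg2 carry a symbol through the authors' tables of selected genes. Their stage p-values are thus not independent of that selection. Over the 13 tested rows of the scaffold other than scppa2, 8 were higher and 4 lower at stage 63, where 43% and 40.8% of all tested genes were. Between whole and notochord-removed tail 2 were higher and 3 lower, where 11.1% and 14.5% of all tested genes were.

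**Figure D3:**
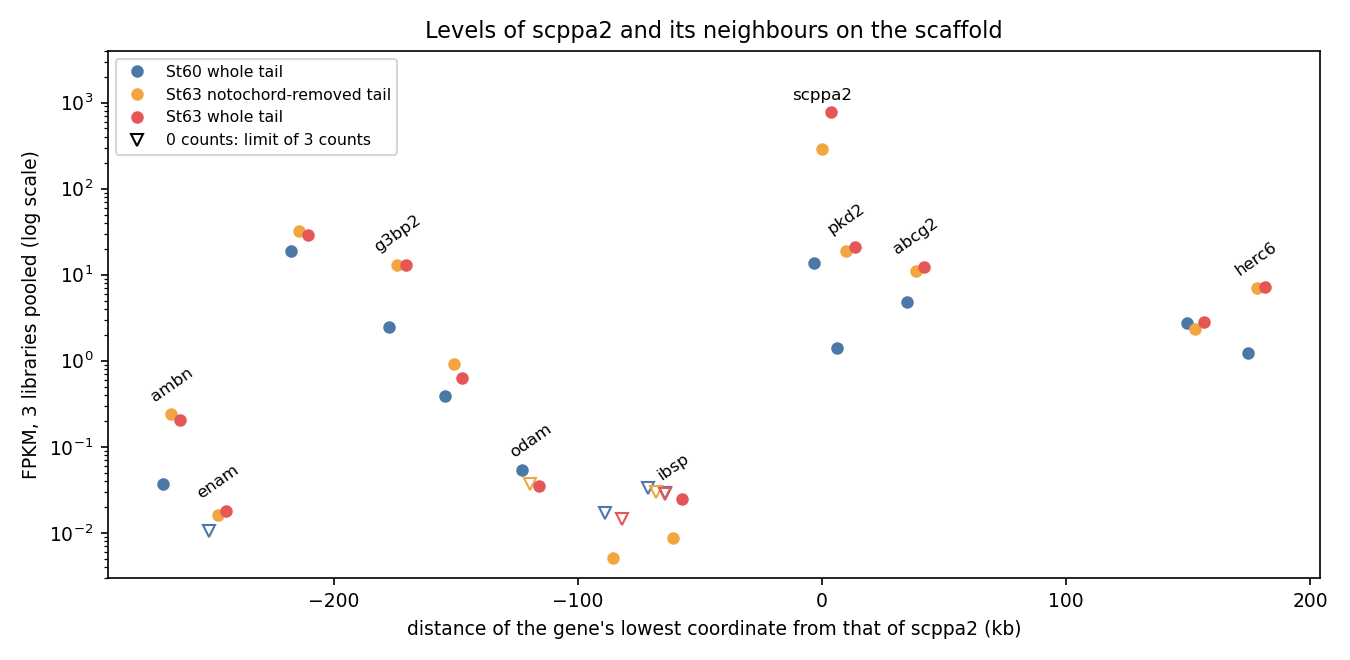
Level of scppa2 and its neighbours as FPKM with the 3 libraries of a group pooled (y axis, log scale) against the distance of each gene's lowest coordinate from that of scppa2 in kb (x axis); colours are the groups, and open triangles mark 0 counts, drawn at the limit of 3 counts. FPKM here has no composition factor, so directions between the stages can differ from those after TMM scaling. Rows without a name carry no label. In stage 63 whole tail scppa2 stands at 775 FPKM, while ambn, enam, odam and ibsp stay under 0.25.

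Genes with a like pattern over the 9 libraries were sought by Euclidean distance between centred log2(CPM + 0.5) profiles, among 12660 genes with a mean of at least 1 CPM. Distance was used because 2145 of these genes had a Pearson correlation with scppa2 of at least 0.95, as 3 groups leave few shapes. The libraries share depth and composition across genes, so both measures are descriptions. The nearest gene of all had no symbol, ENSXETG00000027940, at a distance of 0.917 with r = 0.996, where the median distance was 6.17. It had 1.75 ± 0.368 CPM at stage 60, 44.6 ± 2.89 CPM in stage 63 whole tail and 16.3 ± 2.55 CPM in notochord-removed tail (SD, n = 3). Its log2 differences were 4.66 and 1.45, and 36.6% of its level remained in notochord-removed tail, close to the 36.0% of scppa2. It was singled out after its values were seen.

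The 8 nearest genes with a symbol were the keratin gene krt5.4, the collagenase gene mmp8, the secreted matrix gene cthrc1, the membrane-anchored metalloproteinase gene mmp14, cmtm4, the sphingosine phosphate lyase gene sgpl1, the transmembrane glycoprotein gene gpnmb and ttyh2. Their distances ran from 1.23 to 1.59 and their correlations from 0.968 to 0.985. Their stage differences lay between 3.71 (gpnmb) and 4.80 (krt5.4), a little under that of scppa2. Their notochord differences lay between 0.21 (sgpl1) and 0.59 (krt5.4), well under its 1.47. They kept from 66.4% (krt5.4) to 86.3% (sgpl1) of their level in notochord-removed tail. These 8 resemble scppa2 in the stage step and less so in the notochord step. A further 7 genes without a symbol lay nearer than the 8th of them, and only the nearest is described above. Symbols came with the authors' selected genes, so the 8 do not stand for all genes near scppa2.

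Ranking by correlation, which ignores the size of a change, named 8 other genes. Of these arg1, the gene of the urea cycle enzyme arginase, singled out after its values were seen, had both steps near those of scppa2, with log2 differences of 4.97 and 1.20 at 8.50 ± 0.317 CPM in stage 63 whole tail (SD, n = 3), and r = 0.997. The 7 others had stage differences of at most 1.80.

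**Figure D4:**
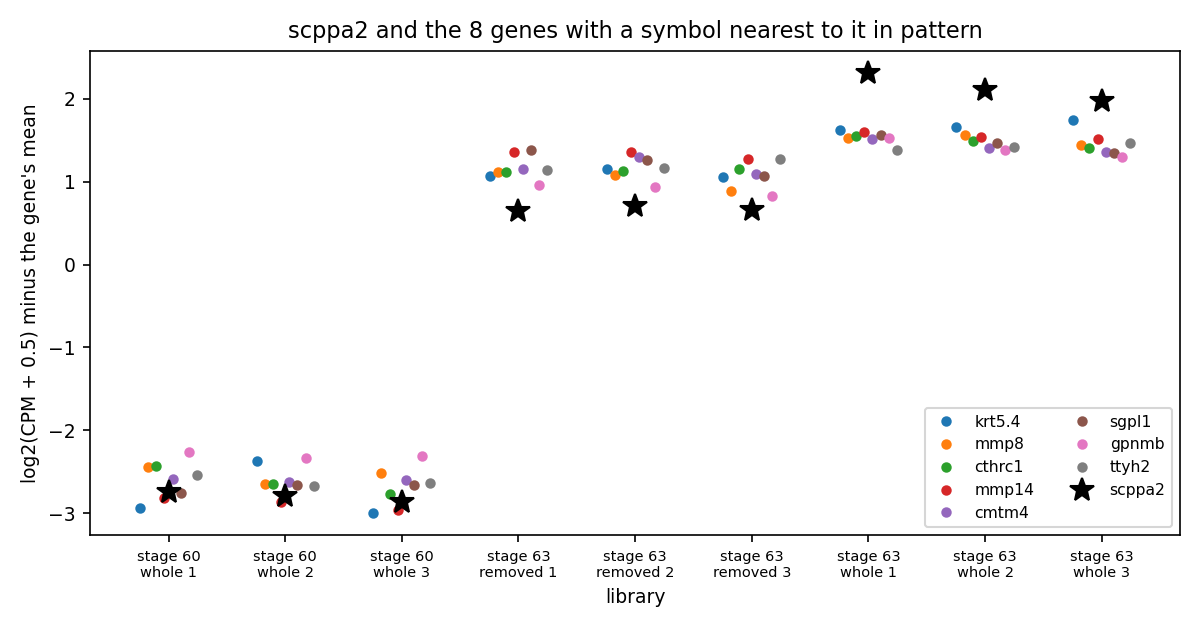
Centred log2(CPM + 0.5), each gene's value minus its mean (y axis), in the 9 libraries (x axis) for scppa2 (stars) and the 8 genes with a symbol nearest to it (points, shifted sideways for clarity). scppa2 lies below the other genes in notochord-removed tail and above them in stage 63 whole tail.

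Genes of mineralized tissue were described by 7 groups of 151 symbols besides scppa2. Of these 76 carried a symbol in the authors' tables and 65 passed the filter on low counts. Names came with the authors' selected genes, and 61 of the 65 stand in the list for stage 63, which takes FPKM ratios above 2. The direction of the stage counts was thus fixed by that selection. The stage p-values of these members, printed below, are not independent of it. In the stage comparison 60 rose, or 92.3%, 4 fell and 1 did not pass, against 92.7% higher among all tested genes with a symbol. The median difference was 1.69, against 1.02 for tested genes with a symbol and 0.05 for all tested genes. This share is near that of any named gene.

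In the notochord comparison 18 of the 65 were higher in whole tail, or 27.7%, 4 were lower and 43 did not pass, where 15.3% of tested genes with a symbol were higher and 8.47% lower. The median was 0.08, against 0.06 for tested genes with a symbol. Of the 18, chad, cnmd, COL9A1 and mgp carry a symbol through the authors' notochord list alone, so their direction was fixed by that selection. Among the 61 members of the stage list 14 were higher, or 23%, and 4 lower, against 14.8% and 8.53% of all tested genes of that list. Without stage 63 whole tail replicate 1 the 18 became 12, and without notochord-removed replicate 3 the 4 became 8; with library totals alone 8 were lower.

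In the SCPP and SPARC family, the tested members besides scppa2 were sparc, spock2, spock3 and fstl1, all of the SPARC branch. The collagen-binding glycoprotein gene sparc was at 1549 ± 66.7 CPM at stage 60, 1958 ± 28.7 CPM in stage 63 whole tail and 2061 ± 41.5 CPM in notochord-removed tail (SD, n = 3). It rose between the stages by 0.34 (SE 0.065; edgeR adjusted p = 8.46e-05), or 1.16 with library totals alone. It did not pass in the notochord comparison, at -0.07. The proteoglycan gene spock3 rose by 1.95 (SE 0.0784) and was lower in whole than in notochord-removed tail, by -0.49 (SE 0.0655; edgeR adjusted p = 2.11e-05), the opposite direction to scppa2. The follistatin-like gene fstl1 rose by 2.5 and spock2 by 1.53, and neither passed in the notochord comparison.

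Kinases and proteases that process secreted matrix proteins rose in 6 of 6 tested members. All 6 stand in the authors' stage list, where 93.4% of tested genes rose and 14.8% were higher with the notochord. The proprotein convertase gene furin rose by 2.59 (SE 0.0708) and differed by 0.22 with the notochord (SE 0.0617; edgeR adjusted p = 0.0134), a call lost without stage 63 whole tail replicate 2 (adjusted p = 0.0656). The procollagen protease gene bmp1 rose by 2.48 and its relative tll1 by 3.52, and neither passed in the notochord comparison, though bmp1 did at -0.19 with library totals alone (edgeR adjusted p = 0.0494).

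Phosphate and calcium handling genes rose in 10 of 10 tested members, and 5 were higher with the notochord present. All 10 stand in the authors' stage list, where 93.4% of tested genes rose and 14.8% were higher with the notochord. Of the 5, vdr and slc8a1, named after their values were seen, lost the notochord call in 9 and 6 of 16 alternatives. The sodium and phosphate cotransporter gene slc34a2 had 0.53, 0.82 and 0.39 CPM at stage 60, 7.76, 6.51 and 6.60 CPM in stage 63 whole tail and 2.09, 2.05 and 1.90 CPM in notochord-removed tail. For slc34a2 all 3 groups stood apart, in an order that 9.47% of all tested genes had without overlap. It rose by 3.56 (SE 0.19; edgeR adjusted p = 1.44e-12) and differed by 1.79 with the notochord (SE 0.13; edgeR adjusted p = 7.34e-09), a larger notochord difference than that of scppa2. Its second difference was also the authors' ground for naming it in their notochord list.

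The ectonucleotidase gene nt5e rose by 2.40 and differed by 0.97 with the notochord (SE 0.11; edgeR adjusted p = 2.48e-06). The gene ENPP1, which makes the mineralization inhibitor pyrophosphate, rose by 2.92 and differed by 0.36 (SE 0.0865; edgeR adjusted p = 0.0046). The vitamin D inactivating enzyme gene cyp24a1 rose by 3.06 and the transporter gene abcc6 by 2.56, and neither passed in the notochord comparison.

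Among mineral-binding inhibitors and regulators, 5 rose and 1 fell of 6. The 5 that rose stand in the authors' stage list, where 93.4% of tested genes rose. The gene that fell was mgp, the matrix Gla protein, which keeps cartilage and vessels from mineralizing in mammals. It had 288.0, 275.4 and 279.8 CPM at stage 60, 58.4, 51.0 and 43.5 CPM in stage 63 whole tail and 20.9, 22.2 and 20.05 CPM in notochord-removed tail. Stage 60 was highest and notochord-removed tail lowest, without overlap. Of all tested genes, 41.5% lay lower at stage 63 and 18.3% higher with the notochord without overlap. The share with both was not counted. For mgp the values were as follows. It fell by 2.46 on the log2 scale (SE 0.0855; edgeR adjusted p = 1.34e-15) and was higher with the notochord, by 1.28 (SE 0.0872; edgeR adjusted p = 3.31e-09). It carries a symbol through the authors' notochord list alone, so the direction of its notochord difference was fixed by that selection.

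The proteoglycan gene bgn rose by 3.13 and was lower with the notochord, by -0.36 (SE 0.0642; edgeR adjusted p = 3.8e-04). The stanniocalcin gene stc2 rose by 2.23 and was lower with the notochord, by -0.44 (SE 0.069; edgeR adjusted p = 1.33e-04). The leucine-rich proteoglycan gene ogn rose by 3.49 and was higher by 0.24 (SE 0.0737; edgeR adjusted p = 0.0229), lost without stage 63 whole tail replicate 1 or 2 (adjusted p at most 0.101). The Gla protein gene gas6 rose by 2.44, and its notochord difference of -0.17 (SE 0.0587; edgeR adjusted p = 0.0356) was lost in 6 of 16 alternatives (0.00702 to 0.128), including leaving out stage 60 replicate 3, replicate 2 or 3 of stage 63 whole tail, or replicate 1 or 2 of notochord-removed tail.

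Regulators of osteoblasts and chondrocytes rose in 14 of 14 tested members, and 3, or 21.4%, were higher with the notochord. All 14 stand in the authors' stage list, so the direction of their rise was fixed by that selection. In that list 93.4% of tested genes rose and 14.8% were higher with the notochord. The hedgehog ligand gene ihh, which controls cartilage growth and bone formation in mammals, had 0.05, 0.10 and 0.17 CPM at stage 60, 3.90, 3.27 and 3.36 CPM in stage 63 whole tail and 1.78, 1.94 and 1.53 CPM in notochord-removed tail. For ihh all 3 groups stood apart in the order seen for scppa2, which 9.47% of all tested genes had without overlap. It rose by 4.99 (SE 0.31; edgeR adjusted p = 9.39e-12) and differed by 1.01 with the notochord (SE 0.14; edgeR adjusted p = 3.85e-05). Its stage 60 level rested on 6 counts over 3 libraries, and its stage 63 level was 1.91 FPKM against 776 for scppa2.

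The transcription factor gene runx2, needed for osteoblasts in mammals, rose by 2.55 (SE 0.0907; edgeR adjusted p = 1.98e-15, not independent of its selection into the authors' stage list). Its notochord difference was 0.26 (SE 0.0685; edgeR adjusted p = 0.00871), lost without stage 63 whole tail replicate 3 (adjusted p = 0.0564). Its partner gene cbfb rose by 0.76 and differed by 0.31 (SE 0.0862; edgeR adjusted p = 0.0135), lost without stage 63 whole tail replicate 1 (adjusted p = 0.0611). The genes runx1 and msx2 rose by 2.89 and 2.15 and did not pass in the notochord comparison (edgeR adjusted p = 0.0961 and 0.289), where msx2 passed without notochord-removed replicate 3 (adjusted p = 0.0253).

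In bone, cartilage and tooth matrix, 9 rose and 3 fell of 12, the latter being chad, cnmd and COL9A1. These 3 and the proteoglycan gene epyc were the members higher with the notochord. The 9 that rose stand in the authors' stage list, where 93.4% of tested genes rose and 14.8% were higher with the notochord. For epyc the difference was 0.32 (SE 0.0914; edgeR adjusted p = 0.0146), lost without stage 63 whole tail replicate 1 or 2 (0.0732 and 0.0515). The gene COL10A1 rose by 7.01 (SE 0.34) from 3 counts over the stage 60 libraries, and at 7.40 ± 0.381 and 7.64 ± 1.20 CPM it did not differ past the threshold between whole and notochord-removed tail (-0.04; SE 0.12; edgeR adjusted p = 0.831). Both were named after their values were seen.

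Of genes for osteoclasts and mineral resorption, 12 of 13 rose and 3, or 23.1%, were higher with the notochord. All 13 stand in the authors' stage list, where 93.4% of tested genes rose and 14.8% were higher with the notochord. The gelatinase gene mmp9 rose by 3.05 and differed by 0.62 (SE 0.0799; edgeR adjusted p = 1.51e-05). The gene ostm1, needed by the osteoclast chloride transporter in mammals, rose by 1.69 and differed by 0.43 (SE 0.0828; edgeR adjusted p = 7.57e-04). The transcription factor gene mitf rose by 1.29 and differed by 0.32 (SE 0.11; edgeR adjusted p = 0.0336), lost in 5 of 16 alternatives (0.0135 to 0.124), including DESeq2 and leaving out replicate 1 or 3 of stage 63 whole tail or replicate 3 of notochord-removed tail. The phosphatase gene acp5 rose by 2.67 and the integrin gene itgav by 2.49; neither passed in the notochord comparison (edgeR adjusted p = 0.233 and 0.0702), where itgav passed without notochord-removed replicate 3 (0.0018), with library totals alone (0.0311) and with the replicate block (0.0252).

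**Figure D5:**
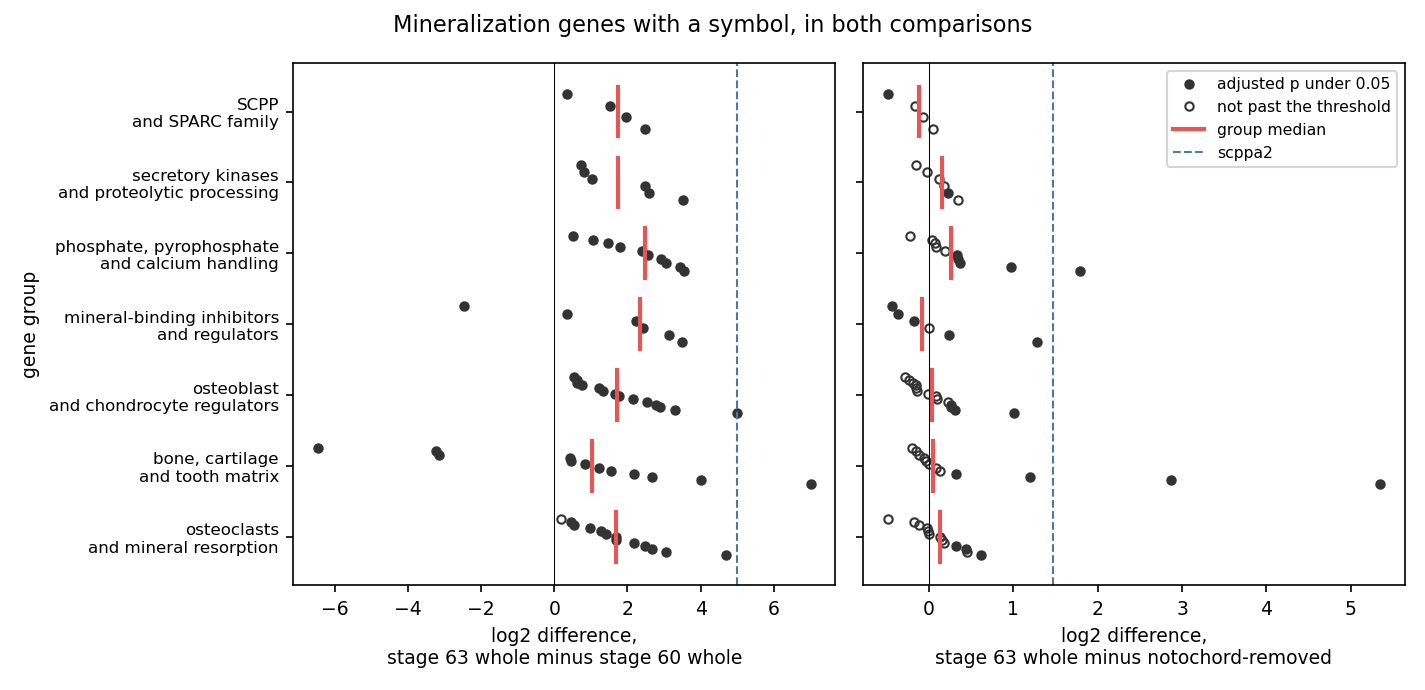
Log2 differences of the 65 tested mineralization genes with a symbol, by group (y axis), for stage 63 whole minus stage 60 whole tail (left x axis) and stage 63 whole minus notochord-removed tail (right x axis); filled points passed an edgeR adjusted p under 0.05, red bars are group medians and the dashed line is scppa2. In the left panel scppa2 lies above all but COL10A1, and in the right panel slc34a2, COL9A1 and chad exceed it.

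Of the 65 genes, 14 were called higher in both comparisons, the combination for which scppa2 was chosen. All 14 stand in the authors' stage list, where they are 23% of the 61 tested members, against 14.5% of all tested genes of that list and 6.95% of all tested genes. The notochord calls of vdr (edgeR adjusted p = 0.0473) and the sodium and calcium exchanger gene slc8a1 (0.0374), both named after their values were seen, were lost in 9 and 6 of 16 alternatives (highest 0.132 and 0.173). For vdr these included leaving out any of the 6 stage 63 libraries, and for slc8a1 replicate 1 or 2 of either stage 63 group. The notochord calls of furin, ogn, runx2, cbfb, epyc and mitf, described above, were also lost in some alternatives. Those of ENPP1, slc34a2, nt5e, ihh, ostm1 and mmp9 held in all 16. The 14 were furin, ENPP1, slc34a2, nt5e, vdr, slc8a1, ogn, runx2, cbfb, ihh, epyc, ostm1, mmp9 and mitf. Of these, slc34a2 and ihh had differences above 1 on the log2 scale in both, and nt5e came near at 2.40 and 0.97. At stage 63 their levels in whole tail were 6.96 ± 0.695 CPM for slc34a2, 3.51 ± 0.343 CPM for ihh and 15.4 ± 0.399 CPM for nt5e (SD, n = 3), all below the 297 CPM of scppa2.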

How the data were processed

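Per the labels' protocols, tail total RNA went into 9 TruSeq libraries. The submitters' processing notes name STAR (2.5.4a) and, for counting, featureCounts (1.5.2). Build and strand setting are not stated. The deposited table holds raw counts per gene. The authors' 3 deposited tables of selected Ensembl 90 genes give FPKM averaged by group, with a ratio between groups. For scppa2, FPKM recomputed from counts, library total and length came within 0.00018% of theirs. Gene names came from these tables.

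The tests used edgeR 4.0.16 under R 4.3.3 (filterByExpr, TMM, estimateDisp, robust glmQLFit and glmQLFTest, group means, all 9 libraries), with Benjamini-Hochberg adjustment over 14125 tested of 19921 genes and a threshold of 0.05. The SE is the difference divided by the square root of F and is approximate. TMM factors were 0.672 to 0.690 at stage 60 and 1.18 to 1.25 at stage 63. All pairs of libraries within a group differed beyond sampling noise (chi-square over degrees of freedom at least 2.53). The fit was tested on simulated counts with 200 changed genes and no shift in composition between groups. It recovered 82% of 1.5-fold and 93% of 2-fold changes in each of the 2 comparisons. This does not test the scaling between the stages, where 83.8% of genes were called.

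The rule for named genes took scppa2, the SCPP and SPARC group, up to 3 genes per other group by p in each comparison, the 8 nearest genes with a symbol, 3 rows on each side of scppa2 and fixed notochord genes; tbxt.2 had no named row. Genes named outside it are marked in the text, apart from the listed cell type markers and genes of the scaffold order. The gene, lists and rule were chosen with earlier results of these data known. Alternatives were other scalings, filters, DESeq2 1.42.0, a replicate block, subsets and each library left out. Symbols carried by 2 identifiers (tll1) took the one with the larger level. Paralogs such as keratins and metalloproteinases can share reads.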

Additional observations from a re-analysis of the deposited data

How the results depend on the processing

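The log2 difference of scppa2 between whole and notochord-removed tail at stage 63 ran from 1.37 (without stage 63 whole tail replicate 1) to 1.55 (without its replicate 3) over 17 alternatives and moved in none by more than the replicate SD of 0.106. Between the stages it was 5.82 with library size alone and 5.82 on the FPKM scale; with single libraries left out it ran from 4.90 to 5.08. For notochord-removed over stage 60 tail these were 4.38 and 4.38, and 3.5 to 3.56. Over all genes, library size alone called 9501 higher and 2821 lower at stage 63, where TMM called 6072 and 5758. Leaving out single libraries gave 5893 to 6229 higher and 5612 to 5901 lower between the stages, and 991 to 1939 higher and 1490 to 2484 lower between whole and notochord-removed tail, with 991 without stage 63 whole tail replicate 2. In the mineralization list these ranges were 59 to 61 higher and 4 to 4 lower between the stages and 12 to 19 higher and 3 to 8 lower for the notochord. Library size alone gave 8 lower for the notochord. Restricting the list to the authors' stage list, chosen after seeing the data, left 0 that fell. Of the 8 nearest genes with a symbol, 0 were shared when ranked by correlation, 3 with a pseudocount of 0.1 CPM, 6 with 2 CPM and 7 with library size alone. ENSXETG00000000341 turned from -0.77 to 0.053 between the stages with library size alone. The cause of these shifts was not tested.

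Whether replicate numbers pair the samples was not settled. Correlations of deviations for the same number ran from -0.0568 to 0.37. Between stage 63 whole and notochord-removed tail they were 0.315, -0.0568 and 0.37 for replicates 1, 2 and 3. No correlations for different numbers are given to set beside them. With the replicate block the notochord difference of scppa2 was 1.47, and 1951 genes were called higher with the notochord present and 2253 lower. The block changed the call of 1 named gene, itgav (edgeR adjusted p = 0.0252). The low counts of enam, odam, ibsp and sp7 limit any statement on them to their upper limits.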
